A study of Mus musculus with 80 samples.

Results

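Signalling by bone morphogenetic proteins (BMPs), growth differentiation factors (GDFs) and transforming growth factor beta (TGF-beta) was examined through 33 genes: 24 ligands, 6 secreted BMP-binding antagonists and 3 BMP receptors, out of 21631 protein-coding genes measured. The members are a list of gene names defined by family and role, with no threshold on a measured value. What was measured is H3K27me3, trimethylation of lysine 27 of histone H3, the mark that Polycomb repressive complexes lay down over silent genes. It was mapped by CUT&RUN, in which an antibody brings a nuclease to marked chromatin, in fibroblasts purified from mouse myometrium and endometrium with magnetic beads.

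The Kdm6b set held 12 lists of H3K27me3 peaks, each pooling 3 samples of a group. Kdm6b encodes a demethylase that removes H3K27me3. In 5 pairs, Pgr-Cre Kdm6b f/f females (called cKO) were set against Kdm6b f/f controls. Gestation days (GD) differed by pair: 3 pairs came from inter-implantation tissue (IIS), at GD5.5, at GD8.5 and at GD14.5, and the implantation sites themselves (IS) gave 1 pair at GD14.5 and 1 at GD18.5. In the other pair, Pdgfra-Cre Kdm6b f/f females were set against Kdm6b f/f controls at GD14.5 IS. All females of this set carried the floxed allele and were mated to B6 males. Pgr-Cre acts in any cell that expresses the progesterone receptor and Pdgfra-Cre in cells of the fibroblast lineage, so the Pgr-Cre deletion is not limited to fibroblasts. A separate set of 4 lists came from B6CBAF1/J females, a hybrid strain with no floxed allele in its labels. These were uterus at GD0.5 and IIS at GD5.5, both from females mated to B6 males, uterus at GD5.5 from females mated to vasectomized males, and uterus after 3 days of progesterone in females that were not pregnant. The names of the lists give calling settings for the Kdm6b set alone, so no value of one set was compared with the other. Ages are not in the labels.

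BMP, GDF and TGF-beta ligands are secreted dimers that join type I and type II receptor kinases, which then phosphorylate SMAD proteins that enter the nucleus. Antagonists such as noggin and gremlin bind BMP ligands outside the cell and keep them from their receptors. In the mouse uterus this signalling is best known for its part in decidualization, the remodelling of stromal fibroblasts around the implanting embryo, in which Bmp2 is required.

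Coverage is the percent of a gene, widened by flanks of 2 kb, that merged peaks overlap (mm10), and differences are in percentage points. Each list held 131900 to 287629 peaks covering 609 to 740 Mb, and the read depth behind the lists is unknown. Since each group has 1 pooled list, there is no spread between its 3 samples, and only the 6 cKO-control pairs give replication. Peaks over Kdm6b itself covered 0 to 7.1% of the gene in the 16 lists, which does not show whether the allele was deleted. Of 8 fibroblast marker genes, 6 were at 0 in all 12 lists of the Kdm6b set and the highest averaged 23.1% coverage, while all 8 epithelial markers and 6 of 7 immune markers averaged at least 50%. Smooth muscle, endothelial and trophoblast markers were mixed, with 3 of 7, 2 of 7 and 3 of 6 at 50% or more.

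RefSeq (GRCm38.p6) listed a start for 22 of the 33 members, and the 250 bases before 6 of these starts are shown. They contrast genes whose start lay inside a peak in all 16 lists with genes that no peak touched and with a gene marked in a few lists. CG dinucleotides, which read the same on both strands, are in capitals, because Polycomb domains in mammals are often seeded at CG-rich sequence. The first is Grem1 (chr2:113758649-113758898, minus strand), the second Bmper (chr9:23222826-23223075, plus strand) and the third Bmp10 (chr6:87428744-87428993, plus strand), with a peak over the start in every list.
Grem1: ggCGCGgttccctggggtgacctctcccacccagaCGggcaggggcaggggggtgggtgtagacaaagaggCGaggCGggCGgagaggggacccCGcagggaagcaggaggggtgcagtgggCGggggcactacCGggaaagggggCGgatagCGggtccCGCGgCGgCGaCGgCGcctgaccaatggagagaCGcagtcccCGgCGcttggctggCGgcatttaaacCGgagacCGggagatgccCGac
Bmper: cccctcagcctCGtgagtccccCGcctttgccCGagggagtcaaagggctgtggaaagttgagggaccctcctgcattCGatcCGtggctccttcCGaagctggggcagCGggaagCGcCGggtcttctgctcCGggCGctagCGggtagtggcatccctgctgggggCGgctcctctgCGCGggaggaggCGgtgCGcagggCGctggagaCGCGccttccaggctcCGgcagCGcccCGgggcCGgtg
Bmp10: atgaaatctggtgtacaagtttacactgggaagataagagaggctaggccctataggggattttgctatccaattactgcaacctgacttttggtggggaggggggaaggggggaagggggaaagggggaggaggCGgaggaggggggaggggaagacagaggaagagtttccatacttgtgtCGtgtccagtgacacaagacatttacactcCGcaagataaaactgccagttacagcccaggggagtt
The next, Bmpr2 (chr1:59764029-59764278, plus strand) and Twsg1 (chr17:65951188-65951437, minus strand), had no peak anywhere in the gene, and Gdf2 (chr14:33940789-33941038, plus strand) had its start inside a peak in 2 of 16 lists, both from the Kdm6b set.
Bmpr2: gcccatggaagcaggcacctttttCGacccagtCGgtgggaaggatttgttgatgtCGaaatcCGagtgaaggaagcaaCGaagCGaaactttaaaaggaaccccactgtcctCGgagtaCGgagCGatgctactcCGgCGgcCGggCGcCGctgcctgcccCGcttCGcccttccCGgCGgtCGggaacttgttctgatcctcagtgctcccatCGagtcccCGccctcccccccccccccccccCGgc
Twsg1: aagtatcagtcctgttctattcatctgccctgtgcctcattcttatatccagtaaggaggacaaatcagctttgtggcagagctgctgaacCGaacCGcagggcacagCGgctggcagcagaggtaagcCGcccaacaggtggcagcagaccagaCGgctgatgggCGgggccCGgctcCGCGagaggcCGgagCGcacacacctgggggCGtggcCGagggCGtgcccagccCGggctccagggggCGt
Gdf2: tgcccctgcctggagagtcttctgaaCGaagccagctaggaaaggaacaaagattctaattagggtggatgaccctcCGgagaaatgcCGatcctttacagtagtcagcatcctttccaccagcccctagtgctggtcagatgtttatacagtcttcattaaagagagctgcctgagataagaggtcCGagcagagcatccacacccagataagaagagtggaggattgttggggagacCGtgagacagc

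The stretches held 24 CGs before Grem1, 24 before Bmper, 3 before Bmp10, 22 before Bmpr2, 16 before Twsg1 and 5 before Gdf2. Over 17274 promoters of the same length the median was 10, and 92.8% held at least 1 CG. At least 24 CGs were found in 15.0% of promoters and at least 22 in 19.03%. Marked and unmarked members therefore overlapped in CG count. The 9 members whose start lay inside a peak in all 12 Kdm6b lists (Bmp4, Bmp5, Bmp8a, Bmp8b, Bmp10, Gdf7, Mstn, Grem1 and Bmper) held 3 to 24 CGs with a median of 12, and the 8 whose start lay in none (Gdf1, Gdf11, Gdf15, Tgfb1, Tgfb2, Twsg1, Bmpr1a and Bmpr2) held 1 to 36, with the middle pair at 16 and 21. Among all genes with a listed start, 16.3% had it inside a peak in all 12 lists, with a median of 7 CGs, and 58.5% in none, with a median of 14. These counts are descriptions and were not tested.

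Across the 12 Kdm6b lists, 17 of the 33 members averaged at least 50% coverage, beside 23.4% of all genes, and 7 were at 0 in all 16 lists, beside 31.8% of all genes. The median member was covered over 50.1% of its span and the median gene over 3.46%. Ligands had a median of 45.6%, antagonists 50.5% and the 3 receptors 0. By subfamily, the 9 BMP ligands had a median of 59.2% with none at 0, the 10 GDF ligands ran from 0 to 99.9% with a median of 9.09%, and the 3 TGF-beta ligands reached 7.38% at most. In the B6CBAF1/J lists the medians were 56.7% for BMP ligands, 1.89% for GDF ligands, 66.2% for antagonists and 0 for receptors.

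**Figure D1:**
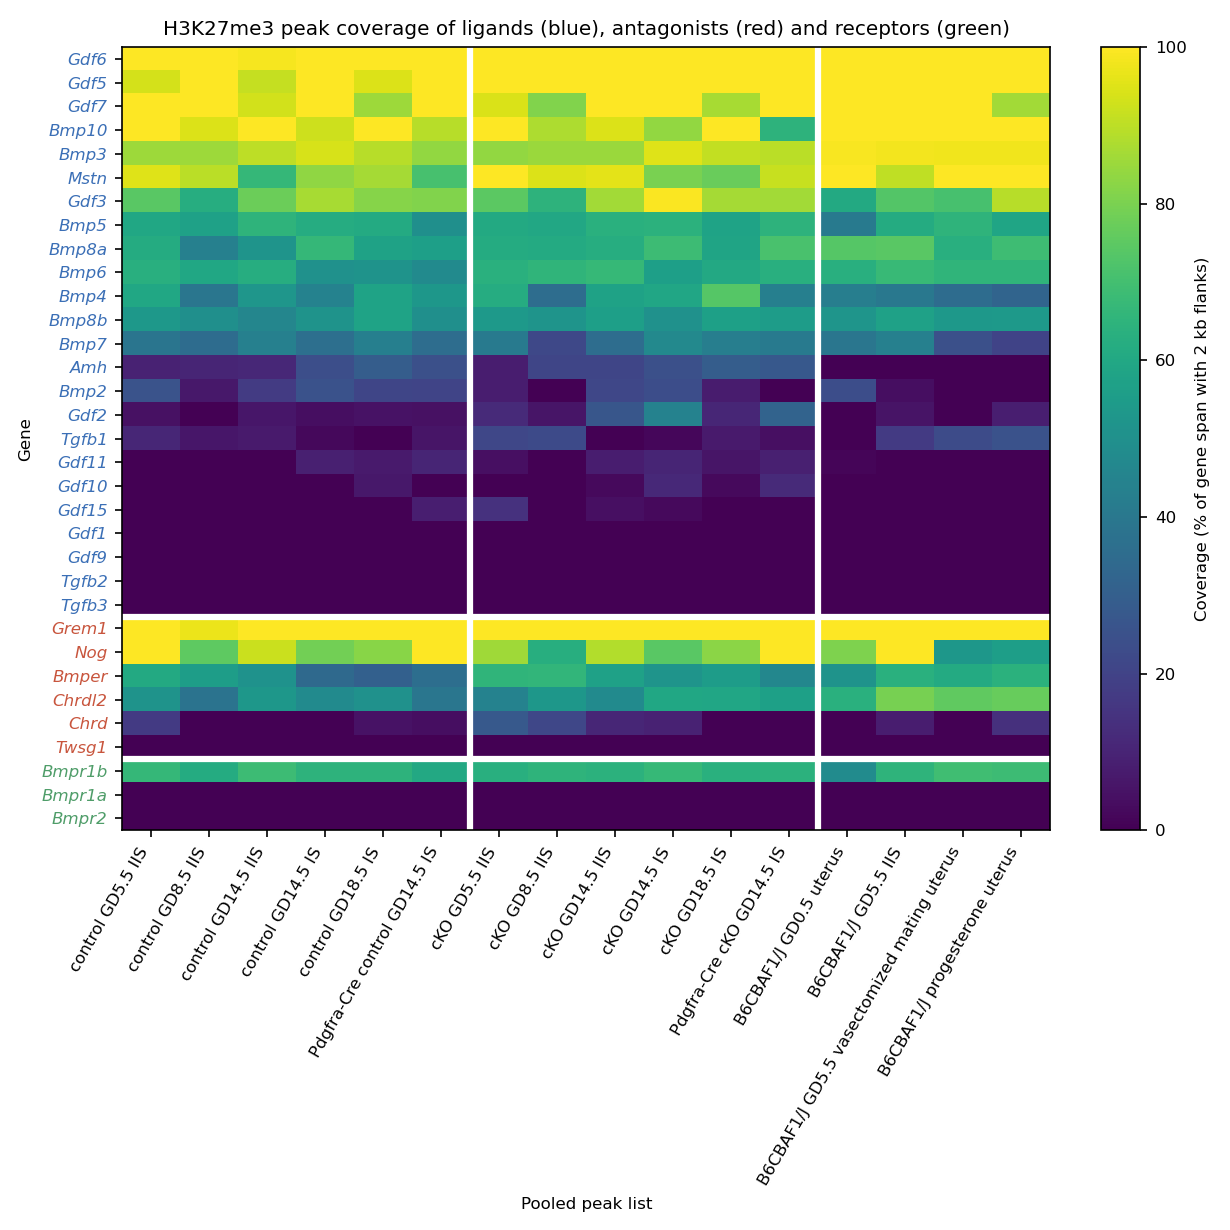
Coverage (percent of gene span with 2 kb flanks inside H3K27me3 peaks, colour scale) of the 33 genes (rows, by role and mean coverage) in the 6 control, 6 cKO and 4 B6CBAF1/J lists (columns). Grem1, Gdf5 and Gdf6 were at or near 100% in every list, and 7 genes, among them Bmpr1a and Bmpr2, were at 0 in every list.

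The 3 most covered ligands belong to the same GDF subgroup. Gdf6 (chromosome 4, 9844372 to 9862345), a ligand of joint and eye development, was covered over 98.6 to 100% in the 6 controls and 99.9 to 100% in the 6 cKO lists, with a median of 100% in both. Gdf5 (chromosome 2, 155941023 to 155945367), which shapes joints, was at 93.5, 100, 91.0, 100, 94.9 and 100% in the controls, in the order GD5.5, GD8.5 and GD14.5 IIS, GD14.5 and GD18.5 IS and Pdgfra-Cre GD14.5 IS, and at 100% in each cKO list. Gdf7 (chromosome 12, 8297918 to 8301954), known from dorsal spinal cord and tendon, was at 100, 100, 93.0, 100, 85.5 and 100% in the controls and 94.2, 81.0, 100, 100, 86.8 and 100% in the cKO lists. All 3 were covered almost end to end in both genotypes, with overlapping ranges. In the B6CBAF1/J lists they were at 100%, apart from Gdf7 at 86.2% after progesterone.

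Gdf6 lay inside a single peak in each list, 26.5 to 48.3 kb wide in the Kdm6b set. Ranked within its list by the authors' -log10 p, the strongest peak over Gdf5 was among the top 5% of peaks in 12 of 12 Kdm6b lists and among the top 1% in 9. For Gdf6 the counts were 12 and 7, and for Gdf7, whose span the gene Ldah overlaps, 9 and 1.

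Other ligands with high coverage were Bmp10, a cardiac ligand, Bmp3, an inhibitory BMP of bone, Mstn, which encodes the muscle growth inhibitor myostatin, and Gdf3, a nodal-like factor of the early embryo. Bmp10 ranged from 89.4 to 100% in the controls with a median of 97.3%, and from 64.7 to 100% in the cKO lists with a median of 91.2%. Mstn ranged from 66.7 to 95.0% (median 84.9%) in controls and from 77.0 to 100% (median 93.2%) in cKO lists. Bmp3 averaged 88.1% ± 3.90 (SD, n = 12 lists) and Gdf3 80.1% ± 10.2 (SD, n = 12). In each of these 4 genes the control and cKO ranges overlapped.

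A middle group of BMP ligands was covered in part. Bmp5 averaged 60.5% ± 4.25 (SD, n = 12 lists), Bmp8a 60% ± 7.44, Bmp6 59.2% ± 6.33, Bmp4 53.1% ± 10.9, Bmp8b 52.7% ± 3.54 and Bmp7 38.5% ± 6.43. The first 3 differed by less than their SDs over lists. Bmp4 is active in many embryonic tissues, Bmp7 in kidney and eye, and Bmp8b in germ cell development. Bmp8a and Bmp8b are closely related copies 187 kb apart on chromosome 4, and reads that fit both cannot be assigned with certainty. Their windows also take in Oxct2a (Bmp8a) and Oxct2b and Ppie (Bmp8b).

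In this group the region around the start was mostly marked. Within 2 kb either side of the listed start, coverage averaged 100% for Bmp5 and Bmp8b, 99.9% for Bmp4, 97.6% for Bmp8a and 93.5% for Bmp6, whose start itself lay in a peak in 11 of 12 lists. Bmp7 has no listed start. Of the 17 members with at least 90% of the start window covered, 8 had under 70% of the whole span covered. The share of all genes with either pattern is not given here, so these counts do not set the members apart. For 7 of the 17, no start is listed and whichever end was more covered stood in for it, which favours a high value; 10 rest on a listed start.

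**Figure D2:**
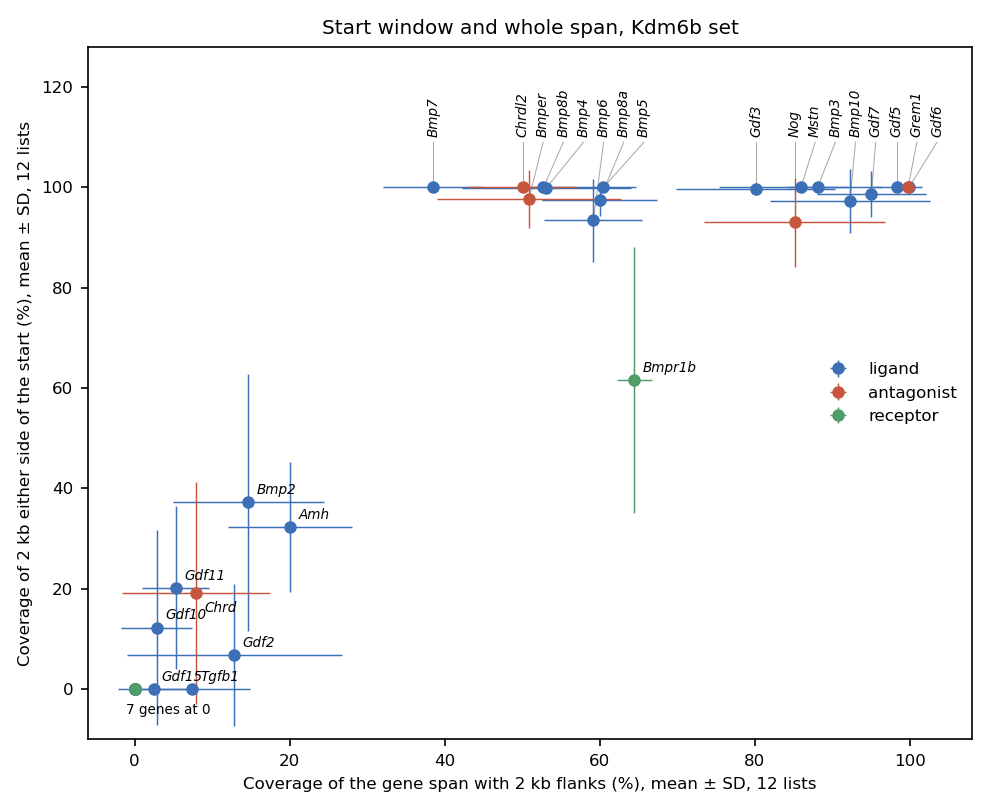
Coverage of 2 kb either side of the start against coverage of the whole span with 2 kb flanks, both in percent, mean ± SD over the 12 Kdm6b lists, for ligands (blue), antagonists (red) and receptors (green). A row of 17 genes lies at 90% or more on the start axis whether the span is covered over 38.5% (Bmp7) or 99.9% (Gdf6), and 7 genes lie at 0 on both axes.

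The remaining ligands were little marked. Bmp2 (chromosome 2, 133552159 to 133562896), the decidual ligand, was covered over 25.6, 6.34, 17.4, 25.2, 20.8 and 20.6% in the controls and 7.84, 0, 21.4, 23.8, 7.50 and 0% in the cKO lists, in the order of pairs given above. Amh, which regresses the Müllerian duct, averaged 20.04% ± 8.05 (SD, n = 12 lists), with the genes Sf3a2 and Jsrp1 inside its window, and was at 0 in the 4 B6CBAF1/J lists. Tgfb1 averaged 7.38% ± 7.47 and Gdf11, a myostatin homologue, 5.31% ± 4.28, just above the 5% needed for the test across pairs. Gdf10 (2.89%) and Gdf15 (2.45%), a stress-induced ligand, were just below it. Gdf1, the oocyte factor Gdf9, Tgfb2 and Tgfb3 were touched by no peak in any of the 16 lists.

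Among the antagonists, Grem1 (chromosome 2, 113748675 to 113758648), which encodes gremlin, was covered over 97.1% in the GD8.5 IIS control and 100% in the other 15 lists. Its strongest peak was among the top 1% of its list in 12 of 12 Kdm6b lists and 4 of 4 B6CBAF1/J lists, and the same held for Chrdl2, a chordin-like BMP binder. Chrdl2 was covered over 37.9 to 52.8% of its span in controls (median 49.4%) and 44.3 to 59.4% in cKO lists (median 55.0%), with 100% of the 2 kb around one end inside peaks in every Kdm6b list. Chrd, which encodes chordin and shares its window with Thpo, averaged 7.92% ± 9.59 (SD, n = 12 lists). Twsg1, a chordin partner, was at 0 throughout.

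Nog (chromosome 11, 89300638 to 89302559), which encodes noggin, was covered over 100, 75.2, 92.0, 78.8, 82.3 and 100% in the controls and 85.7, 62.6, 88.4, 74.3, 82.7 and 100% in the cKO lists. The cKO list was lower in 4 of 6 pairs and the ranges overlapped. The mean difference was -5.79 ± 6.29 points (SD, n = 6 pairs), which did not pass the limma test (adjusted p = 0.165).

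Of the receptors, Bmpr1b (chromosome 3, 141837135 to 142169585), a type I receptor of limb, bone and ovary, was covered over 66.5, 61.5, 68.7, 64.5, 64.7 and 60.5% in the controls and 63.1, 65.2, 64.3, 67.2, 63.3 and 64.1% in the cKO lists. Its mean of 64.5% ± 2.30 (SD, n = 12 lists) came from 56 to 74 peaks along the gene. The start listed for it lies 187 kb inside the span and was within a peak in 5 of 12 lists. Bmpr1a and Bmpr2, the widely expressed type I and type II receptors, were touched by no peak in any of the 16 lists.

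The question asked of the Kdm6b set was whether loss of the demethylase went with more H3K27me3 over these genes. Bmper, which encodes a secreted BMP binder that acts on endothelial cells, rose in the cKO lists, and it was the only member to pass the test. Coverage of Bmper (chromosome 9, 23223076 to 23485215) was 60.6, 55.5, 51.1, 34.3, 30.5 and 35.96% in the controls and 65.5, 66.0, 57.3, 51.8, 55.3 and 46.2% in the cKO lists. Each cKO list was above its own control, while the 2 ranges overlapped across pairs. The mean difference was 12.4 ± 7.47 points (SD, n = 6 pairs; limma on paired differences over all genes, Benjamini-Hochberg adjusted p = 0.0422).

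That was 1 of 24 tested members higher, beside 7.99% of all 10205 tested genes, and 0 members lower, beside 6.45%. A single call among 24 is a smaller share than the background and does not set these genes apart. Unadjusted, 6 members had p under 0.05, Bmper, Bmp6, Gdf2, Gdf3 and Bmp8a with higher and Bmp2 with lower coverage in cKO. That is 25% of the members tested, beside 32.2% of all tested genes. The other 9 members, 6 ligands, 1 antagonist and 2 receptors, averaged under 5% coverage and were not tested. The Bmper call was lost when any 1 of the 6 pairs was left out, with adjusted p between 0.0598 and 0.109, and at equal covered length the difference was 6.98 (adjusted p = 0.0876).

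Covered length moved with genotype. The cKO list covered more of the genome than its control in 5 of 6 pairs, by 18.8 to 123 Mb, and its length was 45.9 Mb less at GD14.5 IIS; the part of this in the result was not tested by any other means than equal covered length. Bmper was higher by 6.27 points in the GD14.5 IIS pair, where the cKO list was the shorter one. That is a single pair and carries no test. At equal covered length Bmper was higher in 6 of 6 pairs, by 1.99 to 15.8 points. Its mean difference at that setting, 6.98 points, did not pass the limma test (adjusted p = 0.0876).

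The added coverage of Bmper was largest in the stretch that begins at its start. With the gene divided into 10 segments of 26.2 kb from its start, coverage of the first averaged 50.9% ± 4.55 in controls and 78.4% ± 8.94 in cKO lists (SD, n = 6 lists each), higher in 6 of 6 pairs. The fifth and the sixth were also higher in 6 of 6 pairs, by 23.0 ± 16.4 and 23.2 ± 17.4 points (SD, n = 6 pairs). The last 2 segments averaged 82.1 to 91.8% in both genotypes, and the ninth was lower in cKO in 4 of 6 pairs. The 2 kb around the start were covered over 82.0 to 100% in each list. In each pair the peak over the start was wider in the cKO list. Its width was 8696 to 30857 bp in controls and 26712 to 36412 bp in cKO lists. The division was made after the values were seen, and no test was run on it.

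**Figure D3:**
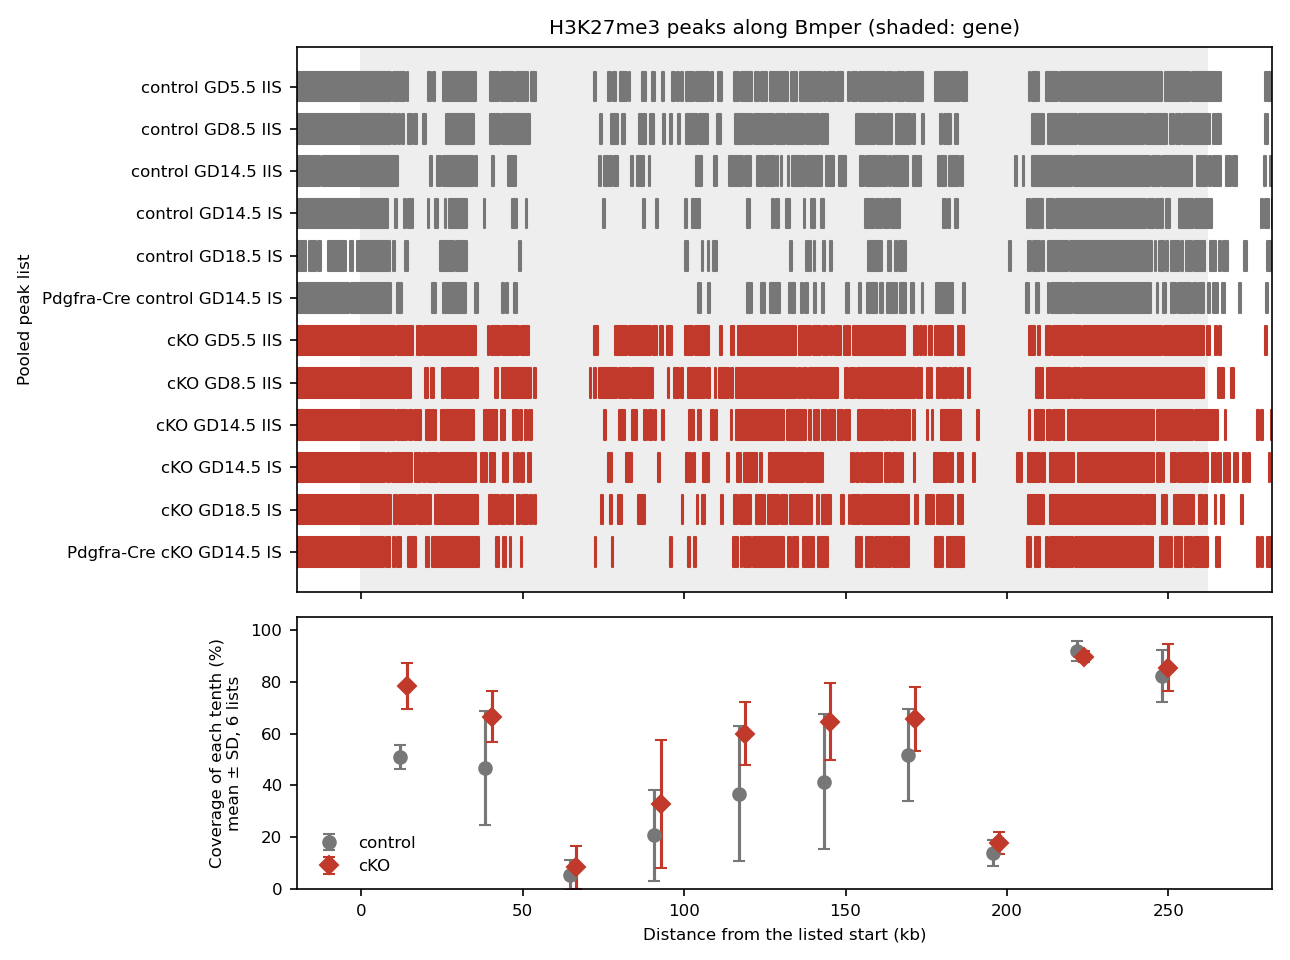
H3K27me3 peaks along Bmper by distance from its listed start in kb (top, 1 row per list, controls grey, cKO red, gene shaded) and coverage of each of 10 segments (bottom, percent, mean ± SD over 6 lists). The cKO points lie above the control points in the first segment, at 78.4% against 50.9%, and close to them in the last 2, at 89.7 against 91.8% and 85.4 against 82.1%.

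Bmper also differed between sites. The 3 IS controls (30.5 to 35.96%) were all below the 3 IIS controls (51.1 to 60.6%), and the 3 IS cKO lists (46.2 to 55.3%) were all below the 3 IIS cKO lists (57.3 to 66.0%). Site and gestation day cannot be told apart here except on GD14.5, where the Pgr-Cre IS control was 16.7 points below the IIS control and the IS cKO list 5.57 below the IIS cKO list, 1 list each. Both Pgr-Cre GD14.5 IS lists come from a separate calling round, which cannot be told apart from site there. Bmp6 was ordered the same way, at 47.7 to 51.2% in IS controls against 59.5 to 63.0% in IIS controls. In cKO lists its ranges nearly met, at 56.3 to 63.2% in IS against 63.4 to 67.1% in IIS. Gdf3 and Amh had the opposite order in both genotypes.

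By genotype, 3 of 24 tested members had all IS controls below all IIS controls (6.06% of all tested genes) and 3 had them above (7.29%). In cKO lists the counts were 4 below (3.83%) and 4 above (15.2%). In both genotypes at once they were 2 below, Bmper and Bmp6 (1.14%), and 2 above, Gdf3 and Amh (2.5%). At equal covered length Bmper and Amh kept their order in both genotypes. Bmp6 lost it in cKO lists, with GD18.5 IS at 47.2% above GD14.5 IIS at 44.6%. Gdf3 lost it in both genotypes. Its Pdgfra-Cre GD14.5 IS list was below GD14.5 IIS, at 69.1 against 72.6% in controls and 77.2 against 80.9% in cKO lists. The comparison of IS with IIS was added after the values were seen and carries no test.

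A further 3 ligands were higher in cKO in 6 of 6 pairs without passing the test. Gdf2, which encodes the circulating ligand BMP9, was covered over 4.58, 0, 6.09, 3.70, 4.86 and 4.39% in controls and 11.9, 5.69, 26.7, 44.4, 10.6 and 31.7% in cKO lists. The difference of 17.9 ± 14.3 points (SD, n = 6 pairs) gave adjusted p = 0.0796 with limma. The 2 ranges overlapped only between 5.69 and 6.09%. At equal covered length Gdf2 was at 0 in all 6 controls and above 0 in 2 cKO lists, GD14.5 IIS (14.1%) and GD14.5 IS (11.9%). Its peaks were weak: the strongest was 0.400 to 1.91 kb wide and ranked 25.7 to 88.8% from the top of its list. With flanks of 5 kb Gdf2 passed the test, at 18.1 points (adjusted p = 0.0110).

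Gdf10, the neighbour of Gdf2 with a gap of 4.52 kb, had its highest values in the 2 cKO lists where Gdf2 was also highest, both GD14.5 IS, at 11.6% with Pgr-Cre and 12.1% with Pdgfra-Cre, against 0 in both controls. Bmp6 differed by 6.96 ± 5.06 points (SD, n = 6 pairs; adjusted p = 0.0676 with limma) and Gdf3 by 5.54 ± 4.39 (adjusted p = 0.0844). Bmp6 passed when the median difference of each pair was subtracted (6.83 points, adjusted p = 0.0460). With lists cut to equal covered length Bmp6 came to 0.92 points (adjusted p = 0.860 with limma), with -4.61 at GD5.5 IIS and -7.54 at GD14.5 IIS, and Gdf3 to 3.84 (adjusted p = 0.593), with -16.1 at GD5.5 IIS. In the 2 kb either side of the start the difference was -0.95 for Bmp6. For Gdf3, which has no listed start, it was -0.72 around the more covered end. That window of Gdf3 was at 100% in all 6 controls, so it could not rise. These 3 ligands were picked out after their values were seen: 4 of the 24 tested members were higher in 6 of 6 pairs, 16.7%, beside 11.8% of all tested genes.

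Bmp2 differed in the other direction. The cKO list was below its control in 5 of 6 pairs, with a mean difference of -9.22 points (SD 9.62, n = 6 pairs) and adjusted p = 0.148 in the limma fit, and its adjusted p was between 0.0961 and 0.467 in the 15 alternatives. Over the 24 tested members the median difference was 3.11 points and 19 were positive (79.2%), beside a median of 0 and 49.4% positive over all tested genes. At equal covered length 14 of 21 members were positive (66.7%), with a median of 1.72, beside 41.9% and -0.50 for all genes. In the 2 kb either side of the start 8 of 24 were positive (33.3%) and 7 negative, with a median of 0, beside 39.6% positive over all genes. In that window 17 members averaged at least 90% coverage, with little or no room to rise. For 7 of the 17 the more covered end of the gene stood in for the start. The start-window count therefore cannot be set against the count over the span.

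**Figure D4:**
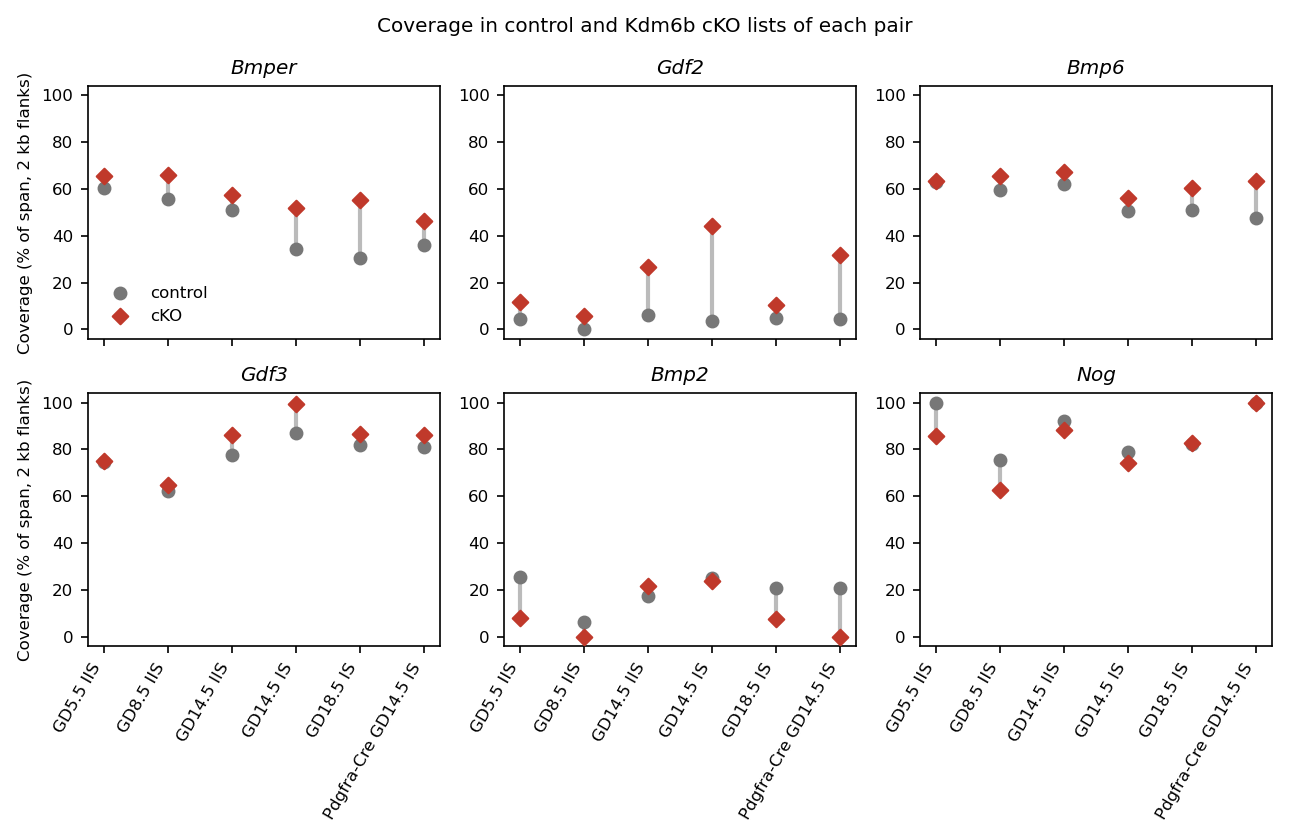
Coverage (percent of span with 2 kb flanks) of 6 members in the control (grey circle) and cKO (red diamond) list of each of the 6 pairs, 1 pooled list per point. Bmper, Gdf2, Bmp6 and Gdf3 are higher in cKO in each pair, Bmp2 is lower in 5 of 6 and Nog in 4 of 6.

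Pair by pair, with 1 list a side and no test, no member differed by 50 points or more, the size used to call a change. The share of all genes that did was 0.324% at GD5.5 IIS, 0.804% at GD8.5 IIS, 1.2% at GD14.5 IIS, 1.18% at GD14.5 IS, 0.818% at GD18.5 IS and 0.37% in the Pdgfra-Cre pair. At 25 points, 1 member differed at GD14.5 IIS, where Mstn went from 66.7 to 95.7% (6.16% of all genes), 1 at GD14.5 IS, where Gdf2 was 40.7 points higher (5.97%), and 1 in the Pdgfra-Cre pair, where Gdf2 was 27.3 points higher (3.82%). No member did at GD5.5 IIS (2.98%), GD8.5 IIS (5.02%) or GD18.5 IS (4.68%), although Bmper came to 24.8 points in the last. At equal covered length Mstn reached 50.04 points at GD14.5 IIS, while Bmp10 came to -56.8 points at GD14.5 IS, against -8.72 with the peaks as deposited.

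The next comparisons follow gestation day and site within a genotype. In controls no member differed by 25 points between GD5.5 and GD8.5 IIS (0.273% of all genes at 50 points and 2.82% at 25), between GD8.5 and GD14.5 IIS (0.31% and 3.09%), between GD14.5 and GD18.5 IS (0.199% and 1.97%) or between GD14.5 IS and IIS (0.236% and 2.19%). At equal covered length, Mstn went from 89.5% at GD8.5 to 45.7% at GD14.5 in IIS controls, against 83.4% in the Pgr-Cre GD14.5 IS control. Gdf7 went from 100% at GD14.5 to 53.8% at GD18.5 in Pgr-Cre IS controls. Both passed 25 points, so movement was not confined to cKO lists. In cKO lists, with the peaks as deposited, Bmp4 was 26.2 points lower at GD8.5 than at GD5.5 IIS, at 35.6 against 61.8% (0.143% of all genes at 50 points and 2.14% at 25). Nog was 25.8 points higher at GD14.5 than at GD8.5 IIS (0.194% and 2.54%), and Gdf2 33.8 points lower at GD18.5 than at GD14.5 IS (0.24% and 3.02%). Between cKO GD14.5 IS and IIS no member differed by 25 points (0.18% and 3.08%). Bmp10 was past 50 points in both steps that involve cKO GD14.5 IS, at 64.5 for GD18.5 against GD14.5 IS and -59.2 for IS against IIS, once lists were cut to equal covered length, while Bmp4 came to -15.4 and Gdf2 to -11.9. Each of these steps compares 2 single lists. Steps of day or site that involve a Pgr-Cre GD14.5 IS list also cross calling rounds, which cannot be told apart from day or site there.

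The deposited peaks were mostly weak, and the authors' -log10 q reached 2 for few. Peaks that strong touched 6 members in at least 1 control list (10.8% of all genes), Bmp4, Bmp8b, Gdf5, Gdf6, Chrdl2 and Grem1, and 0 members in the 6 cKO lists (3.63%). Chrdl2 was touched in 3 controls, GD8.5 IIS, GD14.5 IS and Pdgfra-Cre GD14.5 IS, and Grem1 in 2. The length covered by such peaks was itself lower in cKO, at 0.495 to 7.78 Mb against 5.24 to 33.7 Mb in controls, and its part in this count was not tested. In the B6CBAF1/J lists 4 members were touched (8.63%), Chrdl2 in 4 of 4 lists, Grem1 in 2 and Gdf5 and Gdf7 in 1 each.

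In the B6CBAF1/J set the GD5.5, vasectomized-mating and progesterone lists were each set against GD0.5. No member differed by 50 points. With the peaks as deposited, no member reached 25 points after natural mating (0.546% of all genes at 50 points and 3.94% at 25). After vasectomized mating Nog did, 27.9 points lower (0.546% and 3.74%), and after progesterone Gdf3, 28.6 points higher, and Tgfb1, 25.2 points higher (1.06% and 5.24%). Gdf3 and Tgfb1 came to 10.4 and 25.2 points at equal covered length. At that setting 2 members reached 25 points after natural mating, 3 after vasectomized mating and 2 after progesterone. Bmpr1b was among them each time, at 31.3% at GD0.5 and 58.2, 57.1 and 56.6% in the other lists. The share of all genes at that setting is not given here. Comparisons share the GD0.5 list, so a high or low value there enters all 3.

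Nog was covered over 80.8% at GD0.5, 100% at GD5.5 after natural mating, 52.8% after vasectomized mating and 56.2% after progesterone. The natural and vasectomized GD5.5 lists differed by 47.2 points, and by 55.0 at equal covered length. That comparison was added after the values were seen. In it no member reached 50 points (0.194% of all genes) and 1, Nog, reached 25 (1.82%). The tissue differed too, IIS in the first and whole uterus in the second.

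Bmp2 was covered over 23.7% at GD0.5 and 3.56, 0 and 0.102% in the natural, vasectomized and progesterone lists. Bmp5 was at 40.95% at GD0.5 and 61.7, 65.1 and 58.9% in the others, Bmpr1b at 48.1% and 65.1, 69.3 and 68.7%, and Bmper at 51.2% and 63.4, 61.3 and 63.7%. In these 3 genes GD0.5 was the lowest list, and in Bmp2 it was the highest. Bmp2 was at 0 at GD0.5 with lists cut to equal covered length, while GD0.5 was again the lowest list of the other 3. Gdf3 was at 60.6, 73.4, 70.9 and 89.1%, and Tgfb1 at 0, 17.1, 22.8 and 25.2%. With 1 list per group none of these orders could be tested.

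**Figure D5:**
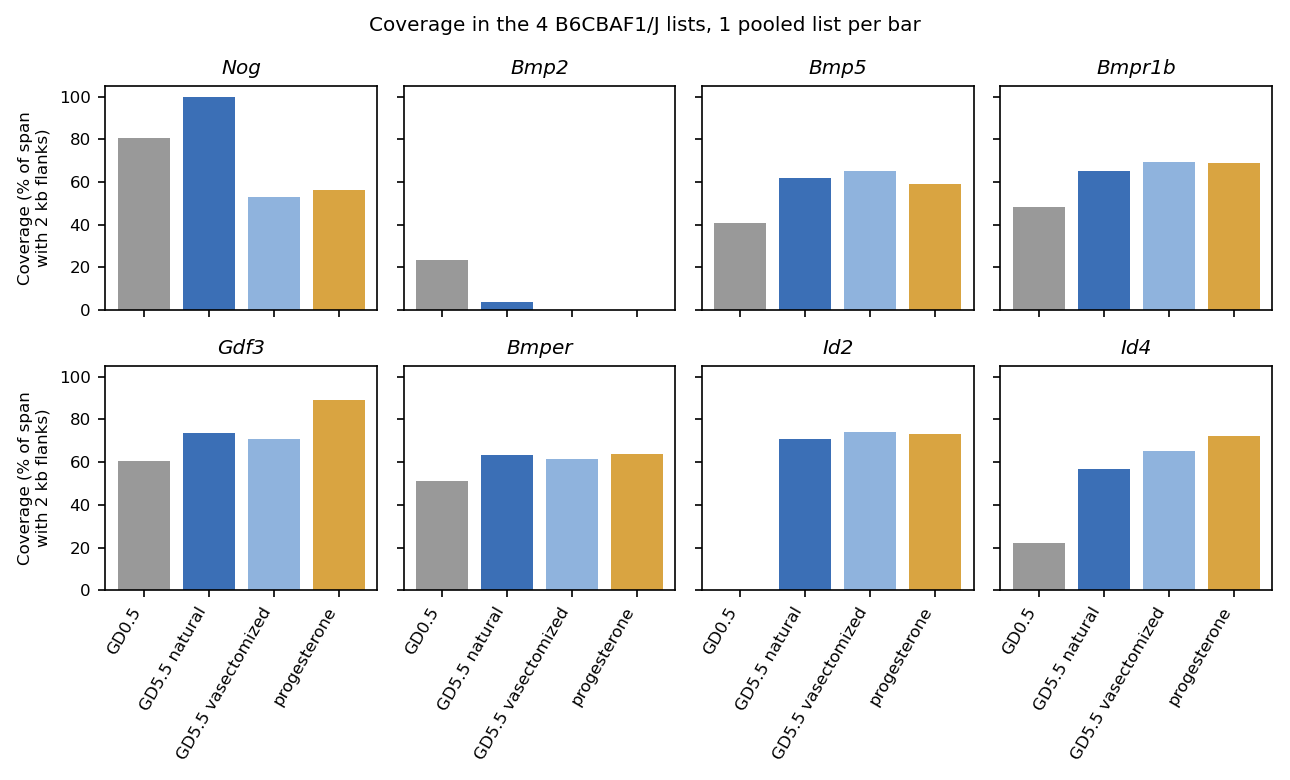
Coverage (percent of span with 2 kb flanks, bars from 0) of 6 members and of the BMP target genes Id2 and Id4 in the 4 B6CBAF1/J lists, 1 pooled list per bar and no error. Nog is at 100% in the natural-mating list and 52.8% in the vasectomized list, and Id2 is at 0 only at GD0.5.

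The rest of the pathway was represented by 48 genes from a list of other receptors, SMADs, extracellular regulators and target genes. Of these, 23 were tested over the 6 pairs, 4 rose and 1 fell, beside the 7.99% and 6.45% of all tested genes. The other 12 receptors and co-receptors were little covered, with 6 at 0 in all 12 lists and 1, Hjv, at 100%, and of the 8 SMAD genes the most covered averaged 19.4%. Target genes had a median of 58.4% over 11 genes.

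Vwc2l, a chordin-like protein of neural tissue, fell from 56.4% in controls to 27.8% in cKO lists, a difference of -28.6 points (SD 8.39, n = 6 pairs, limma adjusted p = 0.00743), lower in 6 of 6 pairs. Controls ranged from 42.4 to 68.1% and cKO lists from 20.9 to 32.4%, without overlap. Its relative Vwc2 rose from 20.5 to 36.8%, by 16.3 ± 4.40 points (adjusted p = 0.00626 with limma), and these 2 related genes thus moved in opposite directions. Crim1, which tethers BMPs at the cell surface, rose from 3.06 to 11.49% (adjusted p = 0.00495 with limma), Ltbp2, a latent TGF-beta binding protein family member, from 65.8 to 72.4% (adjusted p = 0.0152) and the co-receptor gene Rgmb from 9.48 to 14.3% (adjusted p = 0.0457). Each of the 4 was higher in 6 of 6 pairs. The Ltbp2 and Rgmb calls were lost at equal covered length (3.62 points, adjusted p = 0.207, and 5.91, adjusted p = 0.133, with limma), Vwc2 came to 6.33 points (adjusted p = 0.0359) and Crim1 was too little covered to be tested. The Rgmb call was also lost when any pair was left out.

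Amhr2, the receptor for the Amh ligand, was at 54.7% in the GD18.5 IS control and 0 in the cKO list of that pair, the only difference of 50 points in a cKO pair among these 48 genes, and came to -4.14 points at equal covered length. Id2, an immediate target of BMP signalling, was at 0 at B6CBAF1/J GD0.5 and at 70.7, 74.2 and 73.2% in the natural, vasectomized and progesterone lists, which put it past 50 points in all 3 comparisons with GD0.5. Id4 was at 22.0% and 56.7, 65.1 and 72.2%. Id2 differed by 60.1, 21.9 and 73.2 points at equal covered length. These 2 genes were chosen after their values were seen.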

How the data were processed

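The series holds 80 samples from fibroblasts, labelled either H3K27me3 or Input. Of these, 48 H3K27me3 samples enter the 16 peak lists. The other 32, which are Input samples and a second round at GD0.5 and GD5.5, are not analysed here. Per the submitters' processing notes, STAR 2.7.5c, samtools 1.10, Picard, bedtools 2.29.1 and bedGraphToBigWig 2.8 were used on mm10, and macs2 2.2.7.1 called peaks. The authors deposited 1 broad peak list per group of 3 pooled samples, giving each peak's score, fold over background, -log10 p and -log10 q; the score was not used. The peak names show that both Pgr-Cre lists from GD14.5 IS come from a separate calling round.

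Peaks were merged and intersected with 21631 RefSeq protein-coding spans (GRCm38.p6, the same build). Genes averaging at least 5% coverage over the 12 Kdm6b lists were tested with limma 3.58.1 in R 4.3.3 on the 6 paired differences, Benjamini-Hochberg adjusted p under 0.05 over all genes. The independence of the pairs is assumed. Equal covered length means that each list was cut to its most significant peaks, up to 80% of the length of its set's shortest list (487 Mb for the Kdm6b set, 544 Mb for B6CBAF1/J). Tables used python 3.11.15. The fit was also tested on simulated data, with 9800 genes in each of 40 draws and a set spread. It recovered 1.1% of shifts of 10 points, 30.35% of 20 points and 96.35% of 40 points. On average 5.09% of its calls were false. These rates belong to the set spread, and whether they hold for the measured differences was not tested. Spread differed by gene. Rgmb, Ltbp2 and Crim1 passed at 4.79, 6.62 and 8.43 points, with SDs over pairs of 2.77, 2.30 and 1.78. Gdf2 did not pass at 17.9 points, with an SD of 14.3. A member that did not pass the test is not shown to be unchanged. The list of names, like the other gene lists, was drawn up with earlier results of these data known. Values are given list by list for members passing the test, those past 50 points, and the 3 ligands, 2 antagonists and 1 receptor with the highest mean, and pathway genes by the test or 50 points in a cKO pair; others were added after their values were seen.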

Additional observations from a re-analysis of the deposited data

Results flagged for a closer look

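Bmp3 differed in direction between the IIS and the IS pairs. In the 3 IIS pairs the cKO list was lower than its control each time, by 2.25 points on average, with single pairs between -5.10 and -0.34. In the 3 IS pairs it was higher each time, by 2.86 points on average, between 1.33 and 5.83. The means of the 2 groups of pairs differ by -5.11 points, IIS minus IS. The difference was not tested, and Bmp3 was covered over 83.8% or more in each of the 12 lists. The IIS and IS pairs also differ in gestation day. The Pdgfra-Cre pair and the separate calling round fall among the IS pairs alone. Site cannot be told apart from these, and the share of all genes ordered this way is not given here.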

How the results depend on the processing

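Pooled lists carry no read depth, so what depth limits cannot be measured, and the 6 pairs set the precision. Members higher in cKO numbered 1. They numbered 0 at equal covered length, with peaks of -log10 q of at least 2, with the start window, with no filter on mean coverage, in the unpaired fit and with the Pgr-Cre pairs alone, 3 with flanks of 5 kb (Gdf15, Bmper and Gdf2), 2 with the median difference subtracted (Bmper and Bmp6), and 0 to 0 when each pair was left out. With 0 called at equal covered length, 4 of 21 members had an unadjusted p under 0.05, beside 25.9% of all genes. No alternative called a member lower. Over all genes, 815 were higher and 658 lower. The counts were 269 and 372 at equal covered length, 0 and 5 with peaks of -log10 q of at least 2, 16 and 4 with the start window, 376 and 141 with no filter, 514 and 608 with the Pgr-Cre pairs alone, 402 to 518 and 191 to 608 with each pair left out. Leaving out 361 genes constant over the 12 lists, chosen after seeing the data, gave 854 and 831, with Bmper again higher. Single comparisons past 50 points numbered 0 among the members over the 17 planned comparisons, 4 at equal covered length and 9 at 25 points; the added comparison of natural with vasectomized mating gave 1 more of each (Nog). At equal covered length the ligand median was 31.7% and the antagonist median 37.8%. In the start window Bmp6 came to -0.95 and Gdf3, at 100% there in all 6 controls, to -0.72 points. With peaks of -log10 q of at least 2 Vwc2 came to -3.10, and the causes were not tested. Each pair sets a cKO list against its control list. For single samples, no paired analysis was possible because each list pools 3, so their numbers pair nothing.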
